A study of Homo sapiens with 6 samples.

Results

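The genes described here are 10 genes of the actin cytoskeleton, ACTB, ACTG1, ACTA2, TAGLN, MYL9, TPM1, TPM2, TPM4, CNN1 and NEXN, chosen by symbol out of 60691 genes in the count table. They encode 3 actins, 3 tropomyosins and 4 actin-associated or contractile proteins that are commonly listed among the targets of serum response factor (SRF). Each symbol matched 1 row of the table, and all 10 were among the 16591 genes with enough reads to be tested. RNA was sequenced from SW1353, an established human chondrosarcoma line, in 3 libraries labelled shSIRT1 and 3 labelled shfirefly. Both groups were lentivirally transduced and kept in 3% oxygen for 48 h after seeding. The shSIRT1 cells carried a short hairpin RNA labelled as directed against the deacetylase SIRT1, and the shfirefly cells carried one against firefly luciferase, which human cells lack. The results rest on 1 cell line, and the labels conflict on the target of the hairpin: the treatment protocol names EPAS1, which encodes HIF-2α, in place of SIRT1. The design text names HIF-2α target transcription as what the SIRT1 knockdown was meant to probe.

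Actin monomers assemble into filaments, tropomyosins lie along those filaments as coiled coils, and myosin II pulls on them. SRF binds a short DNA element, the CArG box, in the control regions of many genes for actins and actin-binding proteins. Its cofactors MRTFA and MRTFB bind actin monomers, so that the state of the actin pool reaches these genes. In mesenchymal cells several of these proteins, among them smooth muscle α-actin, transgelin and calponin 1, are known as markers of a contractile state.

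The members' promoters are shown for what they hold of the CArG box. RefSeq promoter windows on GRCh38.p14, from 250 bases before to 50 bases after a start site, were at hand for 7 of the 10 members, in 11 windows; ACTB, TAGLN and MYL9 were not matched. A perfect CArG box (CC, 6 A or T, GG, a pattern that reads as the same class on both strands) stood in 1 window each of ACTG1 and TPM4, and 1.29% of the 35116 promoter windows of all genes held one. With 1 mismatch allowed, windows of ACTA2 and NEXN and further windows of TPM4 held one too, and 18.9% of all windows did. The windows with the perfect boxes, the downstream ACTA2 window and the NEXN window follow, with each box of up to 1 mismatch in capitals. ACTG1 is at chr17:81512750-81513049 (reverse strand), TPM4 at chr19:16067288-16067587 (forward strand), ACTA2 at chr10:88952724-88953023 (reverse strand) and NEXN at chr1:77888374-77888673 (forward strand).
ACTG1: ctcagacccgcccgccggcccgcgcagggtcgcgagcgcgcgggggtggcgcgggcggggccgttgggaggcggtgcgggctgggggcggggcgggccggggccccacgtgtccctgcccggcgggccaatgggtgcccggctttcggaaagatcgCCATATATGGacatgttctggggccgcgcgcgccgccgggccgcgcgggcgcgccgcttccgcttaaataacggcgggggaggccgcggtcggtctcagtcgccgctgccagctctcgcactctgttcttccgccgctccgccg
TPM4: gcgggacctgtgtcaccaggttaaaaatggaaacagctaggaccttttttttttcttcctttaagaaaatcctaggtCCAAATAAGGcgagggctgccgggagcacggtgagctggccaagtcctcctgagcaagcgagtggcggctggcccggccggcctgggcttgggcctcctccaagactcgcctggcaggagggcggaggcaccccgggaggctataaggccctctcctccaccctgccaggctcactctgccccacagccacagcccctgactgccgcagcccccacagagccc
ACTA2: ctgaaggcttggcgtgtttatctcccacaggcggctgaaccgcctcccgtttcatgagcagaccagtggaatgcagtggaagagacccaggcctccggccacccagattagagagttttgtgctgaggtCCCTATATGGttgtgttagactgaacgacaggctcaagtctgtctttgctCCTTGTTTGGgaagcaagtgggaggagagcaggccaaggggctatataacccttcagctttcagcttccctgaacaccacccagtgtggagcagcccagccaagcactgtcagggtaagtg
NEXN: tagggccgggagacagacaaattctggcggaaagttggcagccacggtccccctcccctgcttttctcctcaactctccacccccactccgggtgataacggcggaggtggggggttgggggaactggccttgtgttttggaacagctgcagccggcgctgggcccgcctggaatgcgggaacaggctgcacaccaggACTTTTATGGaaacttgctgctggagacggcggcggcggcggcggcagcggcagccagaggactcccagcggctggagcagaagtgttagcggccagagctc
The box of ACTG1 was CCATATATGG, beginning 94 bases before the start, and that of TPM4 was CCAAATAAGG, beginning 173 bases before it. The ACTA2 boxes, CCCTATATGG and CCTTGTTTGG, and the NEXN box, ACTTTTATGG, each had 1 mismatch. Both perfect boxes belonged to members that did not pass the test for a change with the main scaling. Both of these members rose when libraries were scaled by their totals alone. ACTB and TAGLN, which rose, had no window to search, so boxes were not set against changes. The TPM1, TPM2 and CNN1 windows held no box of up to 1 mismatch, which says only that these letters are not in these windows.

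Library totals were 24993064 to 29564361 counts in shSIRT1, against 28556696 to 32044191 in shfirefly. Normalised read counts (CPM) below use library sizes scaled by TMM, and a library with no counts for a gene would still allow up to 0.0967 to 0.115 CPM, the level of 3 counts, with no allowance beyond counting error. SIRT1 had 12.9, 13.2 and 14.7 CPM in shSIRT1, against 26.0, 24.8 and 24.0 CPM in shfirefly, while EPAS1 had 245, 226 and 227 CPM in shSIRT1, against 476, 482 and 409 CPM in shfirefly. Of 10 chondrocyte markers 4 averaged at least 1 CPM, with SOX9 the highest, and 6 did not, COL2A1 among them at 8, 19 and 3 counts in shSIRT1, against 2, 1 and 0 in shfirefly. Of these 4 SOX9 (log2 fold change 0.28, adjusted p = 0.0001) and MATN3 (0.35, adjusted p = 0.032) rose, while HAPLN1 (-0.91, adjusted p = 1.9e-06) and ACAN (-1.16, adjusted p = 0.0018) fell, with a median of -0.32. All 4 thus passed the test, as did 52.8% of all genes tested. MATN3 did not pass with upper-quartile factors (0.30, adjusted p = 0.064) or without replicate 3 of both groups (0.31, adjusted p = 0.11). Of 7 smooth muscle markers 3 averaged at least 1 CPM, and the marker sum was 160.3 to 176 CPM in shSIRT1, against 145 to 158 CPM in shfirefly. Most of that sum came from SMTN alone, which averaged 129 CPM in shSIRT1, against 120.0 CPM in shfirefly. The smooth muscle myosin gene MYH11 had 3, 5 and 0 counts in shSIRT1, against 1, 1 and 7 in shfirefly, and MYOCD, the muscle cofactor of SRF, had 0 in every library.

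Of the 10 members 5 rose in shSIRT1, none fell and 5 did not pass the test with TMM scaling. ACTB, TAGLN, TPM1, TPM2 and NEXN were the members that rose, by 1.09-fold to 3.34-fold. Rises and falls are changes with an adjusted p under 0.05 in edgeR's quasi-likelihood test with Benjamini-Hochberg adjustment over all genes tested. The comparison called 52.8% of all genes tested, 26.8% as higher and 26.0% as lower, so a call on 5 of 10 members lay near that background. No overlap of the CPM ranges was seen for 4 members, ACTB, TPM1, TPM2 and NEXN, against 59.7% of all genes tested. The median log2 fold change of the members was 0.10, against 0.00 for all genes tested. In bulk RNA a change in how many cells express a gene and a change in its RNA per cell cannot be told apart.

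**Figure D1:**
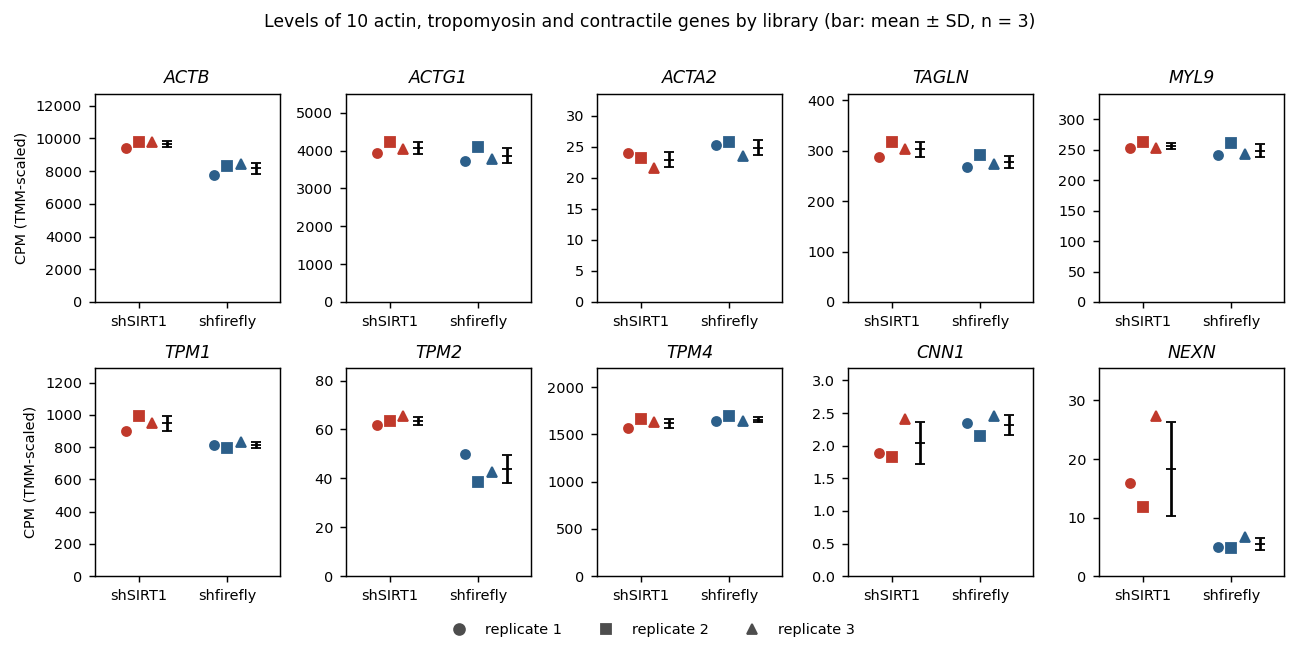
CPM of each gene in each library, with shSIRT1 left of shfirefly, replicates as separate symbols and black bars for the mean ± SD (n = 3). The groups stand apart for ACTB, TPM1, TPM2 and NEXN, and NEXN is the member with the widest spread in shSIRT1.

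Levels spanned more than 3 orders of magnitude, so they are compared per kilobase of the longest annotated coding transcript. In shSIRT1 the order was ACTB at 5029 ± 99.3 CPM per kilobase, ACTG1 at 1803 ± 67.4, TPM4 at 607 ± 18.0, TPM1 at 239 ± 11.5, TAGLN at 139.8 ± 6.96, MYL9 at 90.9 ± 2.02, TPM2 at 45.6 ± 1.25, ACTA2 at 17.0 ± 0.889, NEXN at 5.75 ± 2.50 and CNN1 at 1.10 ± 0.172 (SD, n = 3). The order was the same in shfirefly, running from ACTB at 4249.7 ± 186 CPM per kilobase to CNN1 at 1.25 ± 0.0840 (SD, n = 3). No neighbours in that order had overlapping ranges in either group. The middle of the order depends on the length used: per kilobase of all annotated exons, MYL9 in shSIRT1 (90.9) stood above TAGLN (77.3) and TPM1 (73.5). ACTB ranked 3 and ACTG1 ranked 17 among all genes tested by mean CPM. Among the genes known as markers of a contractile state, transgelin (TAGLN) ranked 557, smooth muscle α-actin (ACTA2) 6745 and calponin 1 (CNN1) 12318, and the myosin light chain gene MYL9 ranked 672.

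ACTB, which encodes cytoplasmic β-actin, rose by a modest amount that exceeded the spread between libraries. Its level was 9440.2, 9777 and 9765 CPM in the shSIRT1 libraries and 7758, 8299 and 8434 CPM in the shfirefly libraries. Every shSIRT1 library was above every shfirefly library. The means were 9660.5 ± 191 CPM in shSIRT1, against 8164 ± 358 CPM in shfirefly (SD over 3 libraries), 1.18-fold higher, which is a log2 fold change of 0.24 ± 0.04 SE (adjusted p = 1.5e-05). ACTB lies on chromosome 7 of GRCh38, from 5527147 to 5563784 on the reverse strand. Reads of its processed copies and of the POTE genes, which carry an actin-like segment, could be shared with it, but the counts assigned to these copies were few: 10 ACTB copies summed to 0.0469% of the ACTB count or less in any library, and 13 POTE genes to 0.0703% or less.

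ACTG1 encodes cytoplasmic γ-actin, which differs from β-actin in only a few residues. It had 3926, 4228 and 4048 CPM in shSIRT1, against 3724, 4091 and 3770.2 CPM in shfirefly, and the groups overlapped. The log2 fold change of 0.08 ± 0.04 SE did not pass the test (adjusted p = 0.13; 95% interval -0.01 to 0.16). With the replicate number as a block, a pairing that the labels do not name, the same log2 fold change of 0.08 passed (adjusted p = 0.020). ACTG1 passed without shfirefly replicate 2 too (0.12, adjusted p = 0.013). ACTG1 lies on chromosome 17, from 81509971 to 81523847 on the reverse strand, and its 20 processed copies summed to 0.0434% of its count or less in any library.

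ACTA2, the smooth muscle α-actin gene, gave the lowest counts of the 3 member actins and did not pass the test. It had 24.0, 23.2 and 21.6 CPM in shSIRT1, against 25.3, 25.8 and 23.6 CPM in shfirefly, which overlapped (log2 fold change -0.12 ± 0.07 SE, adjusted p = 0.15; 95% interval -0.25 to 0.02). On chromosome 10 (88935074 to 88991339, reverse strand) it overlaps FAS, STAMBPL1 and ACTA2-AS1 on the other strand. FAS had 1857 counts in shSIRT1, against 1588 in shfirefly, and STAMBPL1 had 1018 in shSIRT1, against 1405 in shfirefly, totals of the same order as those of ACTA2, and whether counting used the strand is not given in the sources used here.

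Among the counts of the 3 member actins ACTB held a larger share in every shSIRT1 library, a comparison that no scaling factor enters. ACTG2, an actin gene that is not a member, was left out of these shares. It averaged 16.7 CPM in shSIRT1, against 9.32 CPM in shfirefly. ACTB held 70.5%, 69.7% and 70.6% of the summed counts of ACTB, ACTG1 and ACTA2 in shSIRT1, against 67.4%, 66.8% and 69.0% in shfirefly, and the groups did not overlap. The mean share was 70.3% ± 0.491 in shSIRT1, against 67.7% ± 1.10 in shfirefly (SD, n = 3; two-sided exact permutation p = 0.1, and 3 libraries against 3 cannot give less). The share of ACTG1 was 29.6% ± 0.492 in shSIRT1, against 32.05% ± 1.09 in shfirefly, and that of ACTA2 was 0.167% ± 0.0115 in shSIRT1, against 0.207% ± 0.0135 in shfirefly (SD over 3 libraries; exact permutation p = 0.1 for each). Neither of these shares overlapped between the groups. The shares sum to the whole, so the lower share of ACTG1 mirrors the higher share of ACTB and is not a separate result. ACTG1 itself did not pass the test (log2 fold change 0.08).

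Among the tropomyosins TPM1 and TPM2 rose and TPM4 did not pass. TPM2, whose product is best known from muscle and is also made by fibroblasts, had 61.9, 63.3 and 65.4 CPM in shSIRT1, against 49.8, 38.5 and 42.7 CPM in shfirefly. Every shSIRT1 library lay above the shfirefly range, and the shfirefly libraries varied more among themselves, with a coefficient of variation of 2.73% in shSIRT1, against 13.1% in shfirefly. The means were 63.5 ± 1.74 CPM in shSIRT1, against 43.7 ± 5.73 CPM in shfirefly (SD over 3 libraries), 1.45-fold higher, which is a log2 fold change of 0.54 ± 0.08 SE (adjusted p = 1e-04). TPM2 lies on chromosome 9, from 35681992 to 35690121 on the reverse strand, with no other annotated gene over it.

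TPM1, which encodes the tropomyosin of many muscle and non-muscle isoforms, had 899.6, 991 and 949.9 CPM in shSIRT1, against 813, 797 and 829 CPM in shfirefly. The groups did not overlap, and the log2 fold change was 0.22 ± 0.04 SE (1.16-fold higher, adjusted p = 4.7e-05). TPM1 lies on chromosome 15, from 63042632 to 63071915 on the forward strand. It is spliced into many isoforms, and counts per gene do not tell them apart. TPM4, the most abundant tropomyosin transcript here and mainly a non-muscle form, had 1565, 1659.6 and 1627 CPM in shSIRT1, against 1640.3, 1692 and 1639 CPM in shfirefly. Its groups overlapped, and its log2 fold change of -0.03 ± 0.04 SE did not pass (adjusted p = 0.43; 95% interval -0.11 to 0.04). TPM4 lies on chromosome 19, from 16067021 to 16103005 on the forward strand.

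The shares of the tropomyosin genes also stood apart between the groups in every library. With TPM3, the remaining gene of the family and not one of the 10, TPM4 held 49.9%, 49.4% and 49.8% of the tropomyosin counts in shSIRT1, against 53.8%, 54.7% and 53.2% in shfirefly. The share of TPM4 was 49.7% ± 0.274 in shSIRT1, against 53.9% ± 0.730 in shfirefly (SD over 3 libraries; two-sided exact permutation p = 0.1). TPM1 held 29.1% ± 0.404 in shSIRT1, against 26.5% ± 0.603 in shfirefly, and TPM2 1.95% ± 0.0615 in shSIRT1, against 1.42% ± 0.197 in shfirefly (SD, n = 3). TPM3 held 19.3% ± 0.176 in shSIRT1, against 18.2% ± 0.287 in shfirefly (SD over 3 libraries), and none of the 4 shares overlapped between the groups. These shares sum to the whole and are not separate results, and TPM4 itself did not pass the test (log2 fold change -0.03). Together the 10 members took 1.77% ± 0.0444 of all counts in shSIRT1, against 1.45% ± 0.0473 in shfirefly (SD over 3 libraries; exact permutation p = 0.1), most of it from ACTB. A share of all counts is a scaling by library totals: it was 1.22-fold higher in shSIRT1, while the summed TMM-scaled CPM of the members was 1.12-fold higher, at 16958 ± 439 CPM in shSIRT1, against 15098 ± 509 CPM in shfirefly (SD over 3 libraries).

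**Figure D2:**
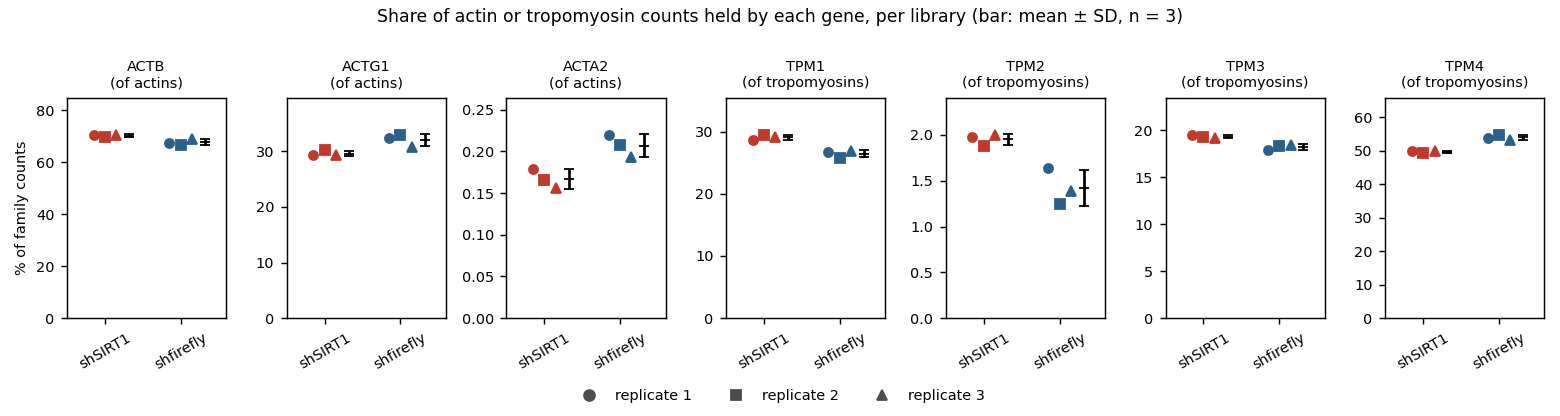
Percentage of the summed actin counts (ACTB, ACTG1 and ACTA2) or tropomyosin counts (TPM1 to TPM4) held by each gene in each library, with shSIRT1 left of shfirefly and black bars for the mean ± SD (n = 3). The shares of ACTB, TPM1, TPM2 and TPM3 are higher in every shSIRT1 library, and those of ACTG1, ACTA2 and TPM4 are lower. Shares within a family sum to the whole, so they do not move independently.

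The 3 contractile genes that associate with these filaments gave 1 rise. TAGLN encodes transgelin, an actin-bundling protein of smooth muscle and fibroblasts, and had 287, 317 and 304 CPM in shSIRT1, against 268, 292 and 274 CPM in shfirefly. Its groups overlapped, since shSIRT1 replicate 1 lay below shfirefly replicate 2, and the log2 fold change was 0.12 ± 0.04 SE (1.09-fold higher, adjusted p = 0.017). The call ended without shfirefly replicate 1 (0.09, adjusted p = 0.17), without shfirefly replicate 3 (0.10, adjusted p = 0.061), without shSIRT1 replicate 2 (0.09, adjusted p = 0.13), without replicate 3 of both groups (0.11, adjusted p = 0.066) and with upper-quartile scaling (0.08, adjusted p = 0.14). TAGLN lies on chromosome 11, from 117199321 to 117204782 on the forward strand, and overlaps PCSK7 on the other strand, which had 5198 counts in shSIRT1, against 4923 in shfirefly.

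MYL9 encodes a regulatory light chain of myosin II, whose phosphorylation switches contraction on. It had 254, 263 and 253 CPM in shSIRT1, against 242, 261 and 243 CPM in shfirefly, which overlapped (log2 fold change 0.04 ± 0.04 SE, adjusted p = 0.36; 95% interval -0.04 to 0.12). CNN1 encodes calponin 1, an inhibitor of the actomyosin ATPase in smooth muscle, and had only 56 to 63 counts per library in shSIRT1, against 58 to 76 in shfirefly. At 1.89, 1.82 and 2.40 CPM in shSIRT1, against 2.34, 2.14 and 2.45 CPM in shfirefly its groups overlapped, and a change was not detectable at this depth (log2 fold change -0.19 ± 0.19 SE, adjusted p = 0.42; 95% interval -0.58 to 0.20). MYL9 lies on chromosome 20 (36541484 to 36551447) and CNN1 on chromosome 19 (11538717 to 11550323), both on the forward strand.

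NEXN showed the largest change of the 10 and the least even one. It encodes nexilin, an actin filament-binding protein of muscle Z-discs and of cell adhesions to the matrix. It had 15.9, 11.9 and 27.3 CPM in shSIRT1, against 4.91, 4.77 and 6.64 CPM in shfirefly. The groups did not overlap, and replicate 3 was the highest library of each group. The means were 18.4 CPM in shSIRT1, with a coefficient of variation of 43.6%, and 5.44 CPM in shfirefly, with one of 19.1%, over 3 libraries each. The level was thus 3.34-fold higher in shSIRT1 (log2 fold change 1.74 ± 0.41 SE, adjusted p = 0.025), and 1.52% of the genes tested had a larger change in either direction. NEXN lies on chromosome 1, from 77888513 to 77943895 on the forward strand, with NEXN-AS1 on the other strand at 89 counts in shSIRT1, against 76 in shfirefly.

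The call for NEXN ended without shfirefly replicate 1 (adjusted p = 0.096), shfirefly replicate 2 (0.092), shfirefly replicate 3 (0.065) or shSIRT1 replicate 1 (0.061), and when low counts were left unfiltered (0.055). The call stayed without shSIRT1 replicate 2 (adjusted p = 0.0092) or shSIRT1 replicate 3 (1.5e-05), and without robust estimation (3.3e-05). The direction stayed, with log2 fold changes of 1.35 to 1.98 over all fits that left libraries out. Without replicate 3 of both groups the log2 fold change was 1.52 (adjusted p = 1.3e-08). Replicate 3 exceeded the mean of the other libraries of its group by 0.99 in shSIRT1 and by 0.45 in shfirefly on the log2 scale. No other member deviated like this in both groups: the next was CNN1, at 0.37 in shSIRT1 and 0.13 in shfirefly. NEXN also had the lowest transcript GC content of the members, 38.1%, where the others ran from 45.9% to 60.5%. Its log2 fold change was 1.57 (adjusted p = 0.024) with a correction for GC content and length. With the replicate number as a block its log2 fold change was 1.72 ± 0.11 SE (adjusted p = 1.1e-11), against an SE of 0.41 without the block. The labels name no pairing by replicate number, so the blocked fit is an alternative only.

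Of the genes averaging at least 5 CPM, the 3 whose log2 CPM followed NEXN most closely over the 6 libraries were the pseudogene PGM5P2 (Pearson r = 0.998), the repressor gene REST (r = 0.998) and NBEAL1 (r = 0.997), out of 10799 genes compared. With 6 libraries in 2 groups such values are common, and 431 genes had an r above 0.95 with NEXN, so they are a description only. NBEAL1 had 15.5, 13.8 and 20.6 CPM in shSIRT1, against 9.27, 9.09 and 11.2 CPM in shfirefly, again highest in replicate 3 of each group. For the other members the closest genes were PPP2CA for ACTB (r = 0.999), AZIN1 for ACTG1 (0.971), ASB3 for ACTA2 (0.994), REXO4 for TAGLN (0.994), TCTN3 for MYL9 (0.986), NOL9 for TPM1 (0.997), MYH15 for TPM2 (0.995), RAD23B for TPM4 (0.978) and SLC33A1 for CNN1 (0.984). The members were left out of this comparison, so whether they followed one another was not examined. None of these 9 genes was on the lists below.

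**Figure D3:**
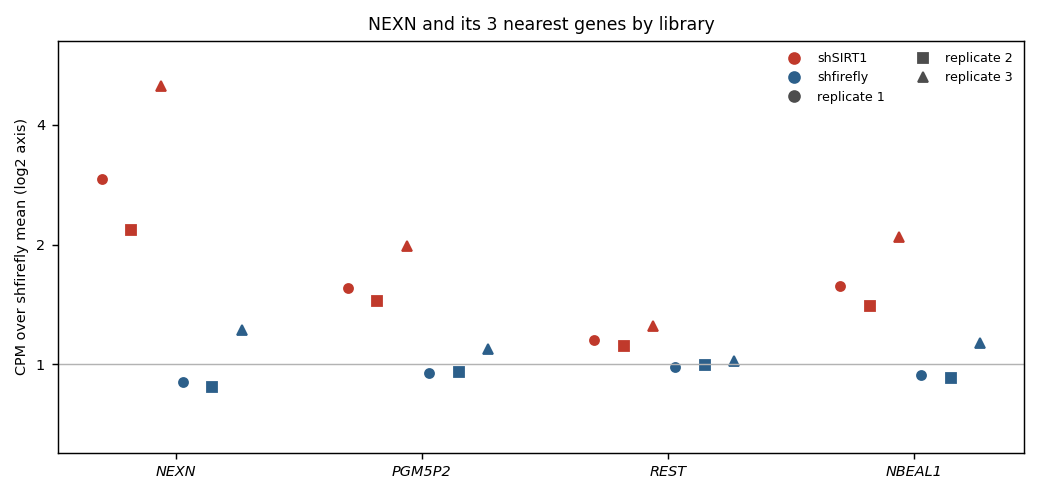
CPM of NEXN and of the 3 genes closest to it in each library, divided by the gene's shfirefly mean, on a log2 axis with shSIRT1 left of shfirefly. The triangles, replicate 3, are the highest point of each group for all 4 genes.

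Several members lie within reach of the scaling. When libraries were scaled by their totals alone, the median of all genes tested moved to a log2 fold change of 0.13, the calls over all genes split into 6225 higher and 3022 lower, against 4449 and 4311 with TMM, and 8 members rose. With the GC and length correction 7 members rose, and over all genes tested 4741 rose and 4046 fell. With upper-quartile factors 4 members rose and ACTA2 fell (log2 fold change -0.17, adjusted p = 0.044), and over all genes tested 3813 rose and 4984 fell. ACTB, TPM1, TPM2 and NEXN kept their direction and their call under TMM, RLE, upper-quartile factors, library totals and the correction for GC content and length. ACTB lay between 0.19 and 0.36 and TPM2 between 0.49 and 0.67 over these settings. In the authors' deposited table ACTB had a log2 fold change of 0.24 (adjusted p = 2.4e-09), TPM2 of 0.54 (adjusted p = 3.5e-11) and NEXN of 1.75 (adjusted p = 3.6e-05).

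**Figure D4:**
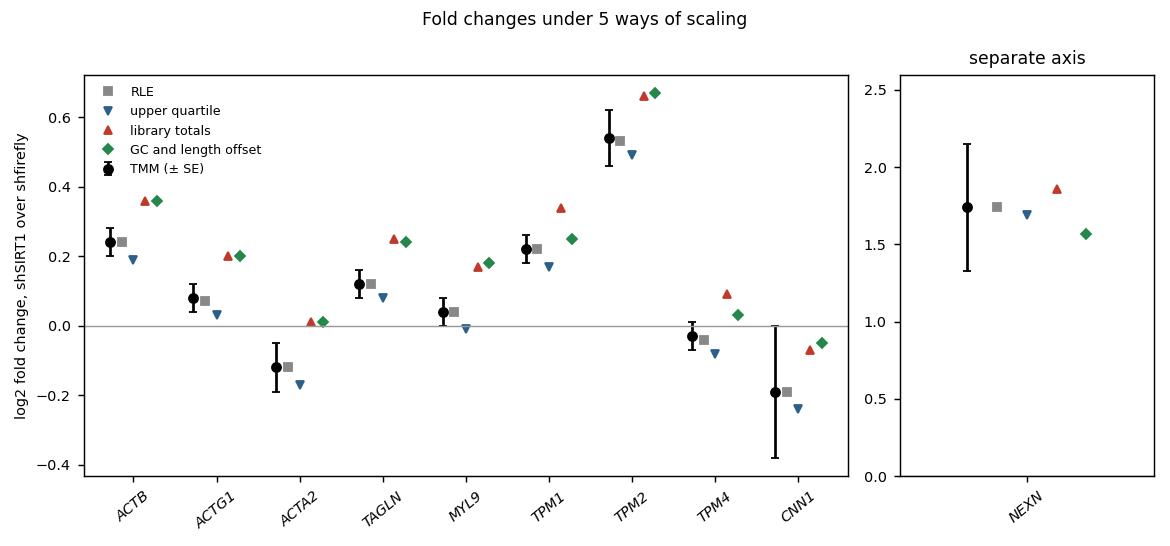
Log2 fold change of each member, shSIRT1 over shfirefly, under TMM (black, ± SE), RLE factors, upper-quartile factors, library totals and a GC and length offset, with NEXN on its own axis. Library totals and the offset place every member but NEXN higher than TMM does, and ACTA2, MYL9 and TPM4 cross 0 between settings. NEXN is higher with library totals and lower with the offset.

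The transcripts of SRF itself and of both its actin-sensing cofactors rose. SRF had 63.5, 65.5 and 59.7 CPM in shSIRT1, against 46.3, 54.0 and 50.1 CPM in shfirefly (log2 fold change 0.33 ± 0.06 SE, adjusted p = 4.1e-05), with no overlap. MRTFA had 65.9 ± 3.04 CPM in shSIRT1, against 54.1 ± 2.18 CPM in shfirefly (SD over 3 libraries; log2 fold change 0.28 ± 0.05 SE, adjusted p = 5.4e-05). MRTFB had 43.9 ± 1.13 CPM in shSIRT1, against 37.3 ± 1.11 CPM in shfirefly (SD over 3 libraries; log2 fold change 0.24 ± 0.05 SE, adjusted p = 0.00061). ELK1, a cofactor of the growth-factor branch of SRF signalling, fell (33.3 ± 1.98 CPM in shSIRT1, against 39.5 ± 1.70 CPM in shfirefly; SD, n = 3; adjusted p = 0.0014), a call lost with library totals (adjusted p = 0.077) and with the GC and length correction (adjusted p = 0.063). Of the 7 tested genes of this list 3 rose, 1 fell and 3 did not pass, with a median log2 fold change of 0.05. The share called, 57.1%, lay near the 52.8% of all genes tested.

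Other cytoskeletal genes listed as targets of SRF and its MRTF cofactors moved both ways. Of 22 tested, 7 rose, 5 fell and 10 did not pass, with a median of -0.02 against 0.00 for all genes tested. Calls covered 54.5% of the list, near the 52.8% of all genes tested. The LIM-domain proteins PDLIM5 (log2 fold change 0.33 ± 0.05 SE) and PDLIM7 (0.32 ± 0.04 SE) and the actin crosslinker LIMA1 (0.22 ± 0.04 SE) rose the most. FHL1 fell to 462 ± 18.9 CPM in shSIRT1, against 714 ± 21.3 CPM in shfirefly (SD over 3 libraries; log2 fold change -0.63 ± 0.04 SE, adjusted p = 1.4e-11), followed by FHL2 (-0.36 ± 0.04 SE) and the non-muscle myosin heavy chain MYH9 (-0.28 ± 0.04 SE). With library totals 13 of the list rose and 3 fell, and with upper-quartile factors 7 rose and 8 fell. PDLIM5, PDLIM7, LIMA1, FHL1, FHL2 and MYH9 kept direction and call under both.

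Few smooth muscle genes had enough reads to be tested. Of 11 listed, ACTA2 and CNN1 among them, 6 were tested, 3 rose and 3 did not pass, with a median of -0.01. Calls on 3 of these 6 lay near the 52.8% called among all genes tested. With upper-quartile factors 2 of the list rose and 2 fell. ACTG2, the enteric γ-actin gene, averaged 16.7 ± 2.45 CPM in shSIRT1, against 9.32 ± 1.71 CPM in shfirefly (SD, n = 3 each), and rose without overlap (log2 fold change 0.85 ± 0.14 SE, adjusted p = 0.00042). LMOD1 also rose (0.98 ± 0.35 SE, adjusted p = 0.024), but on low counts: 23, 26 and 32 in shSIRT1, against 13, 9 and 20 in shfirefly. The skeletal and cardiac actin genes ACTA1 and ACTC1 were near the floor: ACTA1 had 5, 1 and 5 counts in shSIRT1, against 0, 0 and 5 in shfirefly, and ACTC1 had 0 in every shSIRT1 library and 0, 0 and 1 in shfirefly. The smoothelin gene SMTN (0.11 ± 0.04 SE, adjusted p = 0.046) passed narrowly, and its call was lost with RLE factors (0.10, adjusted p = 0.059) and with upper-quartile factors (0.06, adjusted p = 0.28). The list had 1 call without shfirefly replicate 1, shfirefly replicate 2 or shSIRT1 replicate 3.

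Of 10 tested genes for myosin II and its regulators 1 rose, 4 fell and 5 did not pass, with a median of -0.09, so that 5 of 10 were called, near the 52.8% called among all genes tested. The direction depended on the scaling: with library totals 3 rose and 2 fell, with a median of 0.03, and with upper-quartile factors 1 rose and 7 fell. The gene that rose was PPP1R12A, the targeting subunit of myosin phosphatase, with 134 ± 8.57 CPM in shSIRT1, against 78.6 ± 8.89 CPM in shfirefly (SD over 3 libraries; log2 fold change 0.77 ± 0.08 SE, adjusted p = 0.00015). The light chain MYL6B fell (-0.45 ± 0.05 SE, adjusted p = 3.6e-08), as did MYH9, which is on this list too, and the phosphatase catalytic subunit PPP1CB (-0.19 ± 0.04 SE, adjusted p = 0.00025). The call for PPP1CB was lost with library totals (-0.06, adjusted p = 0.13).

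Genes of actin filament turnover split almost evenly: of 34 tested, 12 rose, 11 fell and 11 did not pass, with a median of 0.01. Those calls cover 67.6% of the list, against 52.8% of all genes tested. The thymosin genes, whose products hold actin monomers, parted in direction. TMSB4X had 1177, 1116 and 1151 CPM in shSIRT1, against 978, 988 and 915 CPM in shfirefly, and rose (log2 fold change 0.26 ± 0.04 SE, adjusted p = 5.8e-06). TMSB10 had 1294, 1354 and 1341 CPM in shSIRT1, against 2126, 2129 and 1990.1 CPM in shfirefly, and fell (-0.65 ± 0.04 SE, adjusted p = 6e-12). ACTR3, a core subunit of the Arp2/3 nucleator (0.32 ± 0.04 SE), and the cofilin gene CFL2 (0.25 ± 0.04 SE) rose, and both calls were lost with the GC and length correction (0.08, adjusted p = 0.21, and 0.05, adjusted p = 0.42). The severing protein gene GSN (-0.44 ± 0.04 SE) and the filament-elongating protein gene EVL (-0.29 ± 0.06 SE) fell. With library totals 17 of the list rose and 5 fell.

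**Figure D5:**
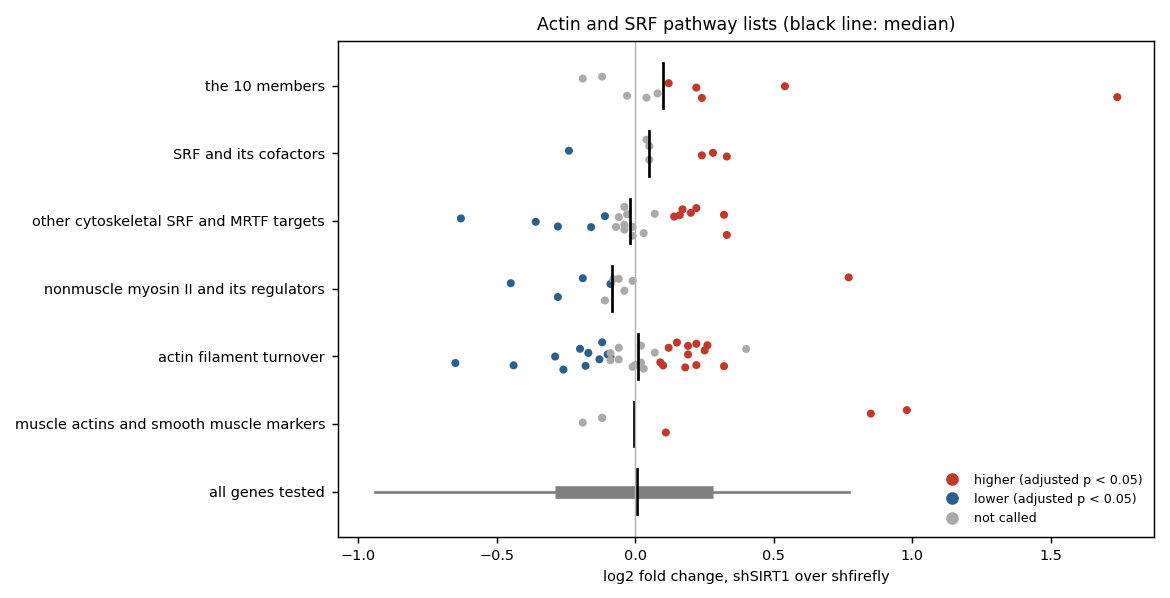
Log2 fold change, shSIRT1 over shfirefly, of each tested gene of the 10 members and of 5 lists of actin and SRF genes, coloured by call, with black lines at the medians and, at the bottom, the range of 25% to 75% (thick bar) and the range of 5% to 95% (thin line) of all genes tested. The medians of the 5 lists lie between -0.09 and 0.05, and within each list of more than 6 genes calls in both directions occur, apart from the 10 members, of which none fell with TMM scaling.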

How the data were processed

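RNA was sequenced from 6 libraries of SW1353 cells (TruSeq Stranded mRNA kit, per the labels' protocols). Trimmomatic, STAR, DESeq2 and GRCh38 are named in the submitters' processing notes, without versions; for the read counter, annotation release and strand setting nothing is given in the sources used here. The deposited table holds raw counts per gene, per the file headers. It also holds counts that the authors normalized and rounded, treated as a score and not used in any test, and the authors' log2 fold change and adjusted p-value.

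Columns were matched to samples by name. Genes were kept by edgeR 4.0.16 filterByExpr (16591 of 60691), scaled by TMM and tested with the robust quasi-likelihood F test on group alone, with Benjamini-Hochberg adjustment over all genes tested. Standard errors are the absolute log2 fold change over the square root of F, and intervals use the test's degrees of freedom. Shares of counts were compared with the exact permutation test, two-sided (SciPy 1.17.1). Libraries of a group differed by more than sampling noise (chi-square per gene 2.80 to 6.06 within groups, 57.4 to 89.9 between groups), and each counted as 1 replicate. The design text calls them biological replicates without naming separate cultures. The edgeR p-values set each group difference against the variation between these libraries, as estimated with moderation over all genes tested. Whether that variation includes variation between separate cultures is not given.

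Same-numbered libraries deviated together from their group means over 10808 genes (r of 0.16, 0.11 and 0.41 for numbers 1, 2 and 3). Number 1 against number 2 gave an r of 0.14 and 0.17 as well, so only number 3 stood apart. The labels name no shared day or culture, so pairing by number is not established. The fit with the replicate number as a block is therefore given as an alternative only. Coordinates came from GENCODE 29, matched by Ensembl identifier, and promoter windows from RefSeq.

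Alternatives were RLE and upper-quartile factors, library totals, DESeq2 1.42.0, no filter, at least 1 CPM in 3 libraries, the replicate block, no robust estimation, a GC and length correction entered as an offset (splines with 5 degrees of freedom), and leaving libraries out. The test was tried on simulated counts with the same spread for every gene (biological coefficient of variation 0.0541). NEXN (0.315), CNN1 (0.105), TPM2 (0.0669) and ACTA2 (0.0558) varied more, so the simulation does not cover them. The genes and lists were chosen with earlier results of these data known. The named genes of a list are the 3 largest rises and 3 largest falls among called genes averaging at least 5 CPM. For each member they are the 3 genes closest in Pearson r that are not members. The called genes LMOD1, MATN3 and ACAN, below 5 CPM, are named in addition. A further list of cytoskeletal genes is not reported here.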

Additional observations from a re-analysis of the deposited data

How the results depend on the processing

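ACTB, TPM1 and TPM2 kept their direction and their call under every alternative run, and CNN1 stayed lower and uncalled. With upper-quartile factors ACTA2 passed (-0.17), TAGLN did not (0.08), MYL9 turned to -0.01 and the myosin list had 8 calls. With library totals ACTG1 (0.20) and MYL9 (0.17) passed, and ACTA2 turned to 0.01 and TPM4 to 0.09 (adjusted p = 0.021). With the GC and length offset ACTG1 (0.20) and MYL9 (0.18) passed, ACTA2 turned to 0.01 and TPM4 to 0.03; with the replicate block together with that offset the values were 0.20, 0.18, 0.00 and 0.03. The replicate block alone brought ACTG1 (0.08) past the threshold, moved no count by over 1.5 times and ended no member's call. With no filter ACTG1 passed (0.08) and NEXN did not (1.75). The smooth muscle list had 1 call with DESeq2 and with a filter of at least 1 CPM, which tested fewer of its genes. Over fits without 1 library, or without replicate 3 of both groups, ACTG1 lay between 0.04 and 0.12, TAGLN between 0.09 and 0.16 (0.11 without replicate 3 of both groups), NEXN between 1.35 and 1.98, and the smooth muscle list had 1 to 3 calls. Counted per kilobase, the difference in share was -0.0605 percentage points for ACTA2 among the actins and 1.15 for TPM2 among the tropomyosins, against -0.0399 and 0.529 from counts. For changes not explained by construction the cause was not tested. Depth limits CNN1 most, at 56 to 76 counts per library.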
